A study of Mus musculus with 16 samples.

Results

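This report describes 10 fibroblast, pericyte and myofibroblast genes in MC38 tumors: Acta2, Tagln, Pdgfra, Pdgfrb, Fap, Postn, Dcn, Lum, Thy1 and Pdpn. They form a list of named genes that was matched by symbol, and all 10 were found among the 53465 genes of the count table. All 10 passed the filter on low counts that left 18251 genes to test. Reads were counted in 16 subcutaneous tumors, each from another mouse, by bulk RNA-seq of stranded poly(A) libraries. MC38 is a mouse colon adenocarcinoma line, grown here in the flank of female C57BL/6 mice 6 to 8 weeks old. All mice carried a tumor of 150 to 250 mm3 on day 16, were dosed on days 16 and 20 with 200 µg of either control IgG or an antibody against PD-1 (aPD-1), and gave their tumors on day 21.

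The 3 groups were IgG control (8 tumors, replicates 1 to 8), aPD-1 non-responder (6 tumors, replicates 9 to 14) and aPD-1 responder (2 tumors, replicates 15 and 16). Treatment was randomized. Response was not: the study called a tumor a responder from its CD8 T cell staining, so the responder group was defined by T cell content and held 2 mice. The RNA came from frozen sections of each tumor, with every cell type in them, so fewer cells of a type and less RNA per cell cannot be told apart. Total counts lay between 26603477 and 39948874 per tumor, with a median of 34105794.

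Fibroblasts build and remodel the matrix of a tumor. Pericytes wrap small vessels. Both respond to platelet-derived growth factors, through the receptors PDGFRA and PDGFRB, and both can take on a contractile state, the myofibroblast, which carries smooth muscle actin. The list spans these states. Acta2 (smooth muscle alpha-actin) and Tagln (transgelin, an actin-binding protein) mark contraction. Dcn (decorin), Lum (lumican) and Postn (periostin) are secreted into the matrix. Fap (fibroblast activation protein, a surface protease), Thy1 (CD90) and Pdpn (podoplanin) stand on the cell surface. The list is not specific to fibroblasts and pericytes. Thy1 is also a T cell gene in mice, and Acta2 and Tagln are genes of vascular smooth muscle. Pdpn is also carried by lymphatic endothelium and some macrophages. In its spatial data, the study named Dcn among the matrix genes enriched in a tumor cell subset. It named Postn among the fibroblast markers of a stroma subset. The part of tumor cells in the levels given here was not tested.

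RefSeq promoter entries (GRCm38.p6) matched 4 of the 10 genes. Sequences are shown for Acta2 and Postn, the 2 of those genes that held a motif marked below. Each is the 250 bases before a listed start, 5′ to 3′ on the gene's strand. In the Acta2 sequence (chr19:34255374-34255623, minus strand) capitals mark CArG boxes, the element that serum response factor binds, allowing 1 C or G among the 6 A or T bases of the core. This looser form was chosen after the sequence was seen.
Acta2: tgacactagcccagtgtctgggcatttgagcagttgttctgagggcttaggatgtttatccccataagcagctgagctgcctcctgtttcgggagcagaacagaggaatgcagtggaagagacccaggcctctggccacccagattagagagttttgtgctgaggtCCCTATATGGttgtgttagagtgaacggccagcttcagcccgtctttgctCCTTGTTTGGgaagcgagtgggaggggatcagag
In the Postn sequence (chr3:54360857-54361106, plus strand) capitals mark the motif TATAAA. A second Postn entry, for a start further upstream (chr3:54359017-54359266), holds no TATAAA and is not shown.
Postn: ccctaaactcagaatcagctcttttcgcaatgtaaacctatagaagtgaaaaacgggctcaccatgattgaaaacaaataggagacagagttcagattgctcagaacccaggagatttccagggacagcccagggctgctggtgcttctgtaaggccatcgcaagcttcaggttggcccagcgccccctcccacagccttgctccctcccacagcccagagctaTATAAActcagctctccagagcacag

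Both motifs were searched on both strands of the 250 bases. The looser CArG box was in 8.59% of 32851 promoters, the strict one in 1.47% and in none of the entries of the listed genes, and TATAAA in 12.4%. The Acta2 matches lie 84 to 75 and 34 to 25 bases before the start, and the Postn match lies 26 to 21 bases before it. The other matched genes, Pdgfra and Pdpn, held neither motif. These are descriptions of letters and were not measured as binding.

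Per kilobase of exon, the 10 genes spanned a wide range in the IgG control tumors. Levels are CPM, the counts of a gene scaled to the size of the library, divided by the length of all annotated exons of the gene (GENCODE M21), as mean ± SD over 8 tumors. Dcn was highest at 207 ± 61.4 CPM per kb. Pdpn followed at 69.5 ± 14.1, then Pdgfra at 34.3 ± 6.24 and Postn at 25.7 ± 8.22, 2 neighbours whose spreads overlap. Lum stood at 18.0 ± 9.12 and Pdgfrb at 8.46 ± 2.21, and the spread of each also overlapped those of its neighbours in rank. Thy1 (5.97 ± 2.24), Acta2 (5.89 ± 3.57) and Tagln (4.22 ± 2.25 CPM per kb) did not differ beyond their spread, and Fap was lowest at 1.39 ± 0.497. The matrix gene decorin was therefore read far more often per kilobase than the contractile genes in IgG control tumors. All further levels are in CPM, not per length, and do not rank the genes against each other.

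**Figure D1:**
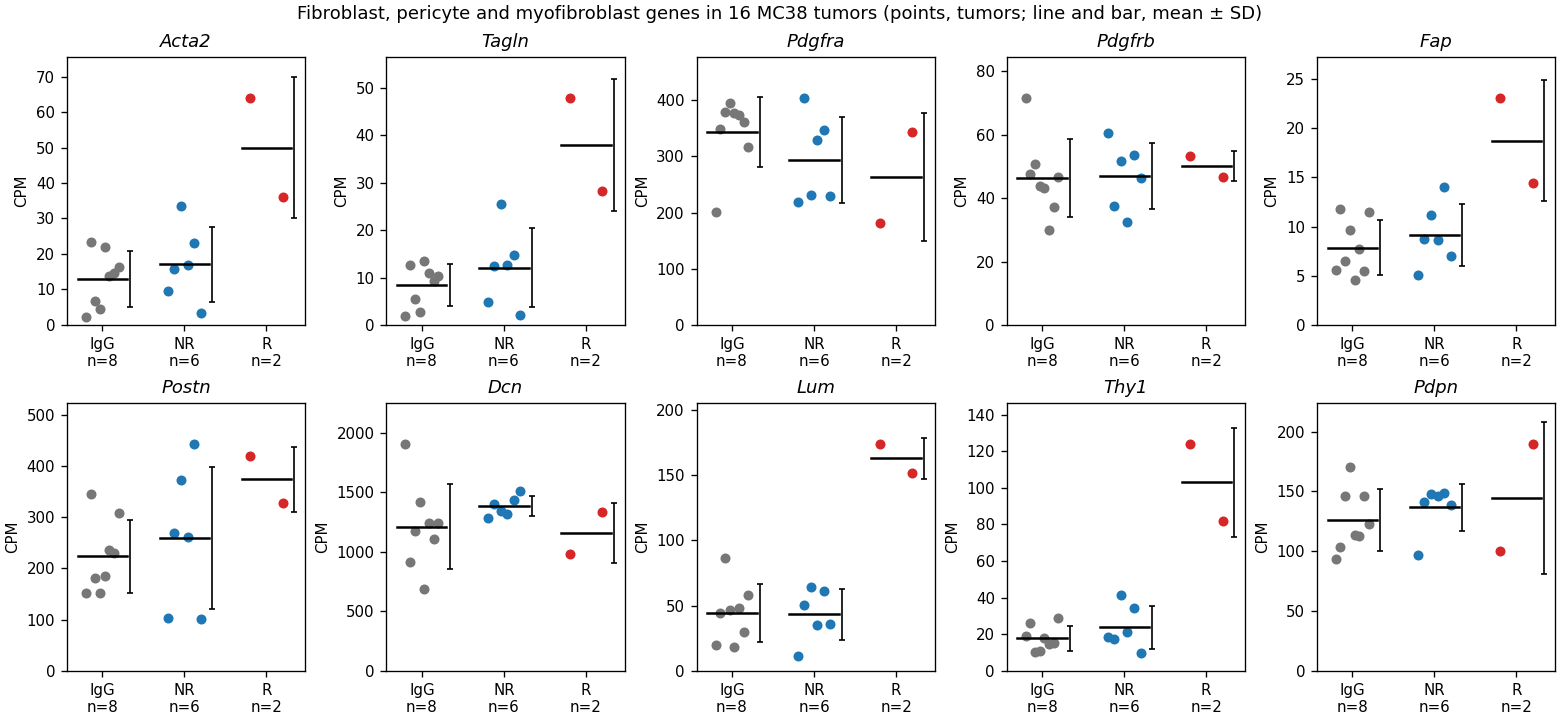
CPM (vertical axes, from 0) of each of the 10 genes by tumor, with 8 IgG control tumors at the left, 6 non-responders (NR) in the middle and 2 responders (R) at the right; points are tumors, and the line and bar are the mean ± SD. For Acta2, Tagln, Fap, Lum and Thy1 both responder points lie above every other tumor, whereas for Pdgfrb, Postn and Dcn both lie within the range of the others, and for Pdgfra and Pdpn 1 responder lies outside it (182 CPM, the lowest, and 189.8 CPM, the highest).

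The question the study's groups pose for these genes is whether their levels went with treatment or with response. In the responders, Lum and Thy1 were higher than in the non-responders, and Acta2, Tagln, Fap, Lum and Thy1 were higher than in the IgG controls, at an adjusted p below 0.05 (edgeR, quasi-likelihood; Benjamini-Hochberg over every gene tested). No listed gene passed the test in the lower direction, and 8 of 10 had a log2 fold change above 0 in each comparison. Against non-responders, 2 of 10 listed genes passed, beside 15.4% of all genes called higher and 4.34% called lower in the responders. Against IgG controls, 5 of 10 passed, beside 17.7% called higher and 5.17% called lower. With the study's added limit of a log2 fold change above 1, the same counts of 2 and 5 held, beside 12.5% and 14.3% of all genes. The median log2 fold change over the 10 genes was 0.79 against non-responders (all genes, 0.02) and 0.99 against IgG controls (all genes, -0.02). Both comparisons use the same 2 responder tumors and are not independent.

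Acta2 ranged from 2.17 to 23.5 CPM in the IgG controls (median 14.2) and from 3.42 to 33.4 CPM in the non-responders (median 16.4). The responders held 64.0 CPM (replicate 15) and 36.0 CPM (replicate 16). Both responders were above all 14 other tumors, though replicate 16 was only just above the highest non-responder. The log2 fold change was 1.55 (SE 0.69) against non-responders, which did not pass (adjusted p = 0.136 by edgeR), and 1.95 (SE 0.65) against IgG controls, which did (adjusted p = 0.0383).

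Tagln followed the same order. It ranged from 1.90 to 13.5 CPM in the IgG controls (median 9.86), from 2.07 to 25.6 CPM in the non-responders (median 12.5), and stood at 47.9 and 28.2 CPM in responders 15 and 16. Again the groups did not overlap, and again replicate 16 lay close to non-responder 11. Tagln was higher by 2.18 on the log2 scale (SE 0.63) than in IgG controls (edgeR adjusted p = 0.0190), and the difference from non-responders was 1.65 (SE 0.68, adjusted p = 0.106).

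Of the PDGF receptor genes neither passed a test. Pdgfra, a receptor gene of fibroblasts, ranged from 200.3 to 395 CPM in the IgG controls (median 367) and from 219 to 404 CPM in the non-responders (median 281), and the responders held 182 and 343 CPM. Responder 15 was the lowest of all 16 tumors and responder 16 lay near the middle, so the 2 responders did not move together. The log2 fold change was -0.16 (SE 0.28, edgeR adjusted p = 0.764) against non-responders and -0.39 (SE 0.28, adjusted p = 0.363) against IgG controls. Pdgfrb, the receptor gene of pericytes, was 46.3 ± 12.1 CPM (SD, n = 8) in IgG controls, 47.0 ± 10.4 CPM (n = 6) in non-responders, and 53.4 and 46.7 CPM in the responders. Its log2 fold changes were 0.09 (SE 0.26) and 0.11 (SE 0.25), with wide errors relative to their size.

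Among the matrix genes, Lum stood apart from Dcn and Postn. Lum ranged from 18.6 to 86.6 CPM in the IgG controls (median 45.7) and from 11.8 to 64.4 CPM in the non-responders (median 43.5), and reached 174 and 152 CPM in the responders. Both responders were well above the highest other tumor. Lum rose by 1.91 on the log2 scale (SE 0.50) against non-responders and by 1.89 (SE 0.47) against IgG controls, with edgeR adjusted p-values of 0.0117 and 0.00733.

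Dcn codes for a related small leucine-rich proteoglycan and lies 47.0 kb before Lum on chromosome 10. It ranged from 689 to 1906 CPM in the IgG controls (median 1208) and from 1284 to 1512 CPM in the non-responders (median 1372), and the responders held 980.1 and 1333 CPM, within the IgG range. Its log2 fold change was -0.26 (SE 0.26, edgeR adjusted p = 0.563) against non-responders and -0.07 (SE 0.25, adjusted p = 0.887) against IgG controls. For each 100 Dcn counts there were 1.02 to 7.36 Lum counts in the IgG controls, 0.917 to 4.80 in the non-responders, and 11.4 and 17.7 in the 2 responders. This ratio is not per length, so only its change between tumors is of use. It was chosen after its values were seen and not tested, and does not depend on scaling between tumors.

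Postn, a matricellular protein gene of activated fibroblasts, ranged from 152 to 345 CPM in the IgG controls (median 208) and from 101 to 443 CPM in the non-responders (median 266). Responders 15 and 16 held 419 and 328 CPM, inside the range of the non-responders. The log2 fold change of 0.53 (SE 0.45) against non-responders did not pass (edgeR adjusted p = 0.480), nor did that of 0.74 (SE 0.43) against IgG controls (adjusted p = 0.252).

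Of the surface genes, Thy1 had the largest log2 fold change of the 10 in both comparisons. It ranged from 10.6 to 29.1 CPM in the IgG controls (median 16.4) and from 9.89 to 41.4 CPM in the non-responders (median 19.9), and reached 124 and 81.9 CPM in the responders. The lower responder was clearly above the highest non-responder. Thy1 rose by 2.11 (SE 0.41) against non-responders and by 2.52 (SE 0.38) against IgG controls, with edgeR adjusted p-values of 0.00129 and 9.6e-05. The responders were chosen for CD8 T cells, and 10 T cell genes summed to 10.1 to 26.3 CPM in the IgG controls, 13.7 to 36.5 CPM in the non-responders, and 268 and 248 CPM in the responders. All 10 passed the test upward in both responder comparisons, with Lck at 53.2 CPM on average in responders and 4.02 CPM in non-responders. The part of T cells in the Thy1 result was not tested.

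Fap was low throughout. It ranged from 4.62 to 11.8 CPM in the IgG controls (median 7.14) and averaged 9.11 ± 3.14 CPM (SD, n = 6) in the non-responders, and stood at 23.1 and 14.4 CPM in the responders. Replicate 16 exceeded the highest non-responder by a small margin. Fap was higher by 1.25 on the log2 scale (SE 0.34) than in IgG controls (edgeR adjusted p = 0.0127), and the difference of 1.04 (SE 0.36) from non-responders fell just outside the threshold (adjusted p = 0.0518).

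Pdpn showed no such separation. Its mean in IgG controls was 126 ± 25.6 CPM (SD, n = 8). In non-responders it was 136 ± 19.8 CPM (n = 6), and the responders, at 100.0 and 189.8 CPM, lay on either side of both means. The log2 fold changes were 0.09 (SE 0.24) and 0.20 (SE 0.23), and neither passed.

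**Figure D2:**
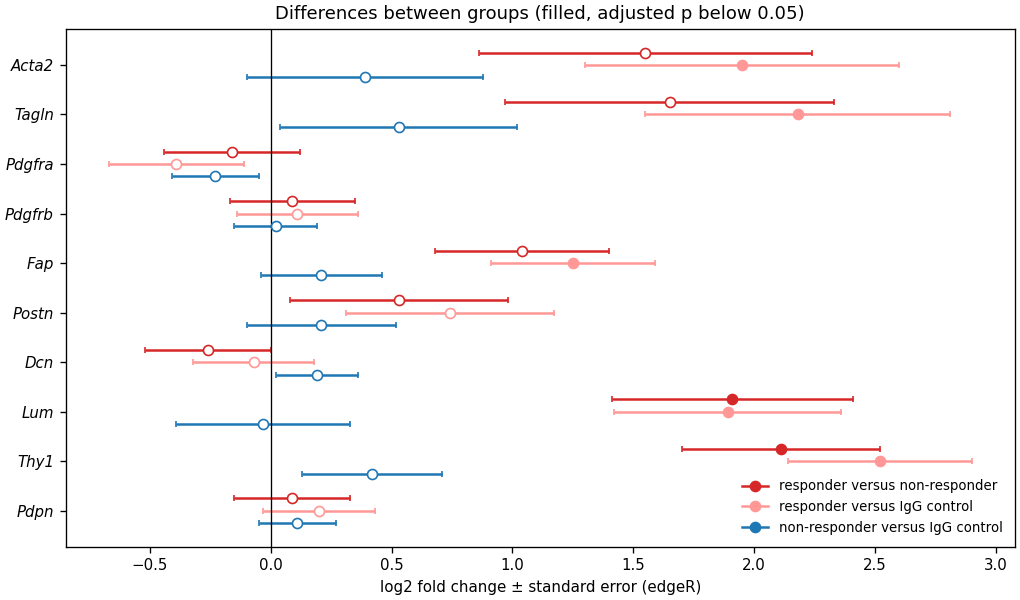
Log2 fold change (horizontal axis) ± standard error from edgeR for each of the 10 genes in 3 comparisons; filled points have an adjusted p below 0.05. Thy1 and Lum have filled points in both responder comparisons, Acta2, Tagln and Fap only against IgG control (whether the comparisons differ was not tested), and no point of the non-responder comparison is filled.

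An exact two-sided permutation test over tumors, on the difference of mean log2 CPM, gave the smallest p the design allows for Lum and Thy1 against non-responders (exact p = 0.0357) and for Fap, Lum and Thy1 against IgG controls (exact p = 0.0222). Tagln against IgG controls gave an exact p of 0.0444, and Acta2 an exact p of 0.0667. In all, 5 of the 10 listed genes had both responders above all 14 other tumors, beside 16.7% of all genes tested.

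The responder calls rested heavily on replicate 15. Without it, 0 of 10 genes passed against non-responders (Lum, log2 fold change 1.75, adjusted p = 0.159, and Thy1, 1.71, adjusted p = 0.0721, by edgeR) and 1, Thy1, passed against IgG controls. A fit with 1 responder takes its spread from the other groups and has less power, so a lost call does not show a lost difference. Without any filter on low counts, 3 genes passed against IgG controls, with Acta2 at an adjusted p of 0.0948 and Tagln at 0.0532.

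Responders also differed in other cell types. The 8 adipocyte genes summed to 17.5 to 159.6 CPM in the IgG controls and 22.8 to 106 CPM in the non-responders, but to 2706 CPM in responder 15 and 449 CPM in responder 16, and all 8 passed the test upward in both comparisons, but 1 of 8 without responder 15. The 10 epithelial genes summed to 4.64 to 12.3 CPM in the 14 other tumors and to 125 and 53.7 CPM in the responders, and of the 8 that could be tested 8 were higher in both comparisons and 5 without responder 15. Of those tested, Cldn3, Cldn4 and Cldn7 averaged 0.0260, 0.0478 and 0.0318 CPM in the non-responders. They passed the low-count filter in the fit of 3 groups but not in that of all aPD-1 tumors against IgG controls. A gene high only in the responders can enter the test through them, so these calls are weak support. In the IgG controls 9 of the 10 epithelial markers averaged below 1 CPM, and Cdx2 and Vil1, markers of intestinal epithelium, were too low to test. The defining markers of the labelled colorectal carcinoma cell type were therefore near 0 in the IgG controls. The 10 blood endothelial genes summed to 74.2 to 244 CPM in the 14 other tumors and to 476 and 253 CPM in the responders. Responder 15, which had more adipocyte, epithelial and endothelial reads than responder 16, also had more Acta2, Tagln, Fap, Lum and Thy1. The part of these tissues in the results for the listed genes was not tested.

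The remaining comparisons gave no listed gene past the test. Between non-responders and IgG controls, 0 of 10 listed genes and 0 of all genes (0%) passed in edgeR, with 0 listed genes and 694 genes in all at an unadjusted p below 0.05 and 11 genes past the test in DESeq2. The log2 fold changes of the listed genes ran from -0.23 (SE 0.18) for Pdgfra to 0.53 (SE 0.49) for Tagln, and 8 of 10 were above 0. Between all 8 aPD-1 tumors and the 8 IgG controls, the randomized comparison, 0 of 10 and 0 of all genes (0%) passed in edgeR. There 2 listed genes, Thy1 (mean 43.6 CPM with aPD-1 and 17.9 CPM with IgG) and Tagln (18.6 and 8.38 CPM), and 1800 genes in all had an unadjusted p below 0.05, and DESeq2 passed 149 genes. Thy1 had an adjusted p of 0.278 and Tagln of 0.408 by edgeR.

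Within the 14 tumors that were not responders, the contractile genes varied widely. Acta2 spread 10.9-fold from lowest to highest among the IgG controls alone and Tagln 7.11-fold, compared with 4.67-fold for Lum, 1.97-fold for Pdgfra, 1.81-fold for Pdpn and 2.77-fold for Dcn. Without IgG control 1 the spread was 5.20-fold for Acta2 and 5.12-fold for Tagln, close to that of Lum, which stayed at 4.67-fold, and 1.25-fold for Pdgfra. These tumors were used for correlations because the responders stood apart. Over the 45 pairs of listed genes, 6 had a Spearman correlation that passed Benjamini-Hochberg adjustment of permutation p-values, all positive. Over all 16 tumors 12 pairs did.

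The closest pair was Acta2 and Tagln, with Pearson's r = 0.98 and Spearman's rho = 0.96 over 14 tumors (both adjusted permutation p = 4.5e-04, from the smallest p that the permutations can give, 1e-05). Without the 2 tumors farthest in Acta2, r was 0.97. The ratio of Acta2 to Tagln counts, not per length, kept between 1.14 and 1.94 in the 16 tumors, with a median of 1.45, and the responders, at 1.33 and 1.27, lay inside that range. Postn went with both: with Acta2, rho was 0.86 and r 0.78 (adjusted permutation p = 0.00270 and 0.0153; r = 0.74 without the 2 farthest tumors), and with Tagln rho was 0.84 and r 0.82 (adjusted permutation p = 0.00360 and 0.00585; r = 0.78). The other 3 pairs were Acta2 and Thy1 (rho 0.74, r 0.69), Postn and Thy1 (rho 0.75, r 0.76) and Fap and Postn (rho 0.73, r 0.74), each with an adjusted permutation p of 0.0312 for rho.

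**Figure D3:**
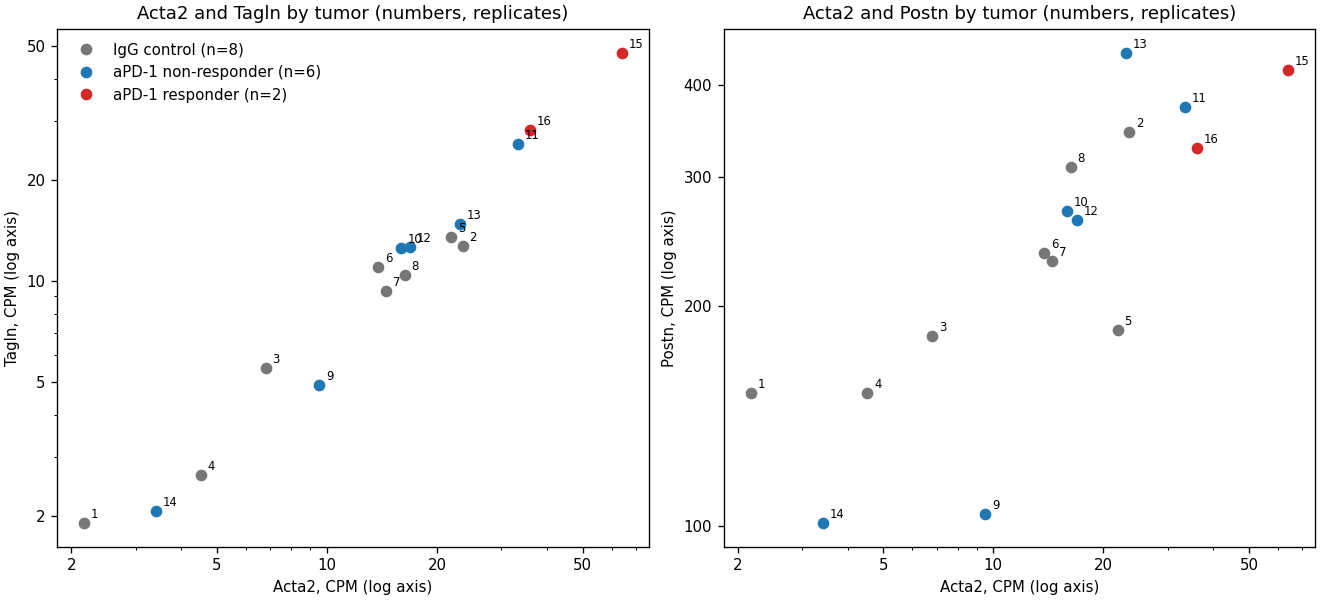
Acta2 CPM (horizontal, log axis) against Tagln (left) and Postn (right) CPM (vertical, log axes) in the 16 tumors, numbered by replicate and coloured by group. Tumors 1, 14 and 4 are lowest in Acta2 and Tagln and tumor 15 is highest, and Postn is lowest in tumors 14 and 9.

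Other pairs that share a textbook role did not go together over the 14 tumors. Dcn and Lum had rho = 0.09 (r = 0.11, adjusted permutation p = 0.867 for rho). Lum and Acta2 had rho = 0.27 (r = 0.26, adjusted permutation p = 0.592). With the responders added, over all 16 tumors, rho was -0.00 for Dcn and Lum and 0.51 for Lum and Acta2. Pdgfra and Pdgfrb ran opposite, with r = -0.66 (adjusted permutation p = 0.0496) and rho = -0.56 (adjusted permutation p = 0.170), but r was -0.35 without the 2 tumors farthest in Pdgfra, so the relation rested on those tumors.

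**Figure D4:**
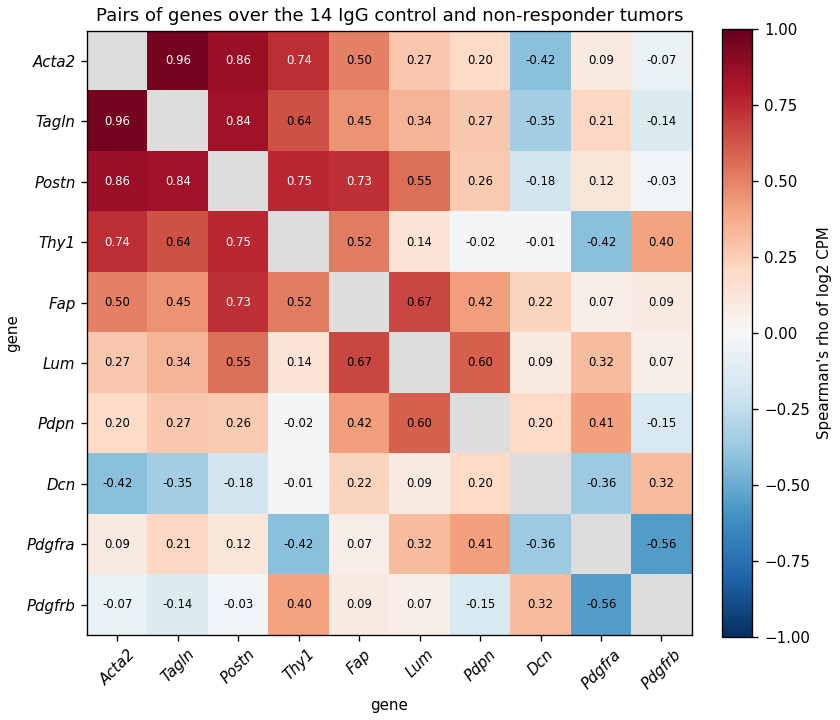
Spearman's rho of log2 CPM (colour scale from -1 to 1) for each pair of the 10 genes, on both axes, over the 14 IgG control and non-responder tumors. Acta2, Tagln, Postn and Thy1 form a block of positive values from 0.64 to 0.96, and Dcn, Pdgfra and Pdgfrb stay outside it.

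The share of counts from mitochondrial genes moved with some of these genes. IgG control 1 had 7.60%, non-responder 9 had 6.00% and non-responder 14 had 5.73%, against 2.52% to 3.25% in the other 13 tumors. The 3 tumors with the high share were the 3 lowest in Pdgfra of the 14 IgG control and non-responder tumors (200.3, 219 and 230.2 CPM), and the 2 lowest tumors for Acta2, for Tagln and for Postn were each among them. IgG control 1 was also the highest tumor for Dcn (1906 CPM) and Pdgfrb (71.6 CPM). Without the 3 tumors, a choice made after seeing the data, Acta2 and Tagln had rho = 0.93, Acta2 and Postn 0.80 and Pdgfra and Pdgfrb -0.29, and the counts of listed genes past the responder tests stayed at 2 and 5. Over these 11 tumors 6 pairs passed by rho, 5 positive and 1 negative, Pdgfra and Thy1 (rho -0.81, against -0.42 over the 14). The part of RNA quality in these levels was not tested.

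The block of Acta2, Tagln, Postn and Thy1 also tracked vessel genes. Each listed gene was set against the summed CPM of 5 cell type lists over the 14 tumors, 50 relations in all, and 9 passed adjustment by Spearman's rho. Postn had rho = 0.93 and r = 0.89 with the blood endothelial sum (adjusted permutation p = 5.0e-04 and 1.0e-03; r = 0.85 without the 2 tumors farthest in that sum). Acta2 had rho = 0.86 and r = 0.82 (adjusted permutation p = 0.00500 and 0.00312; r = 0.78), and Tagln rho = 0.81 and r = 0.83 (adjusted permutation p = 0.0104 and 0.00312; r = 0.80). With the pericyte sum, Acta2 and Postn each had rho = 0.80. Thy1 tracked the blood endothelial sum (rho 0.72, r 0.86), the pericyte sum (rho 0.68, r 0.80) and the T cell sum (rho 0.71, r 0.81), with adjusted permutation p-values for rho of 0.0348, 0.0469 and 0.0408. Without the 3 tumors of high mitochondrial share, rho with the blood endothelial sum was 0.92 for Postn, 0.74 for Acta2 and 0.64 for Tagln. None of the 10 relations with the adipocyte sum passed by rho, and Postn passed by r (0.69, adjusted permutation p = 0.0312, against 0.0795 for rho). With the macrophage sum none passed by rho either. By r, Tagln (0.74), Acta2 (0.73) and Postn (0.67) passed there, with adjusted permutation p-values of 0.00895, 0.0123 and 0.0312, against 0.0515, 0.0551 and 0.0552 for rho. Without the 3 tumors of high mitochondrial share, rho with the macrophage sum was 0.36 for Tagln, 0.40 for Acta2 and 0.36 for Postn.

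Ranked by Spearman's rho over the 16 tumors (12032 genes averaging 100 counts or more), the genes most like Acta2 were Il1rl2 (0.98), Tagln (0.97) and Gpm6b (0.96). Those most like Tagln were Acta2, Cyp1b1 (0.94) and Myl9 (0.94), the last a myosin light chain gene. Postn was closest to Loxl2 (0.96), a collagen cross-linking enzyme gene, Fbln2 (0.96), a matrix gene, and Igsf10 (0.95). Pdgfrb was closest to Plxnd1 (0.96), Creb3l1 (0.92) and Notch4 (0.92). For Thy1 they were Arrdc4 (0.96), Scarf1 (0.93) and Fli1 (0.93), and for Lum Pxk, Zhx2 and Capzb (0.92 each). Fap was closest to Trf (0.92), Nedd9 (0.91) and Ahr (0.90), Pdpn to Ttc39c (0.92), Ppp1r3b (0.91) and Gla (0.90), and Pdgfra to Diaph3 (0.94), Tbcd (0.94) and Exoc6b (0.92). Dcn had the loosest partners, Pwwp2b (0.87), Jun (0.82) and Xaf1 (0.79). Of these 30 places, 13 were the same when the responders were left out.

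Further genes of the same roles were followed from fixed lists, whose counts stand beside the 15.4% of all genes called higher and 4.34% called lower in responders than in non-responders. Against non-responders, 5 of 13 tested contractile genes were higher in the responders, led by Cnn1 (2.86, SE 0.56), Myh11 (3.37, SE 0.67) and Synpo2 (3.60, SE 0.72 on the log2 scale), with edgeR adjusted p-values of 0.00142, 0.00158 and 0.00168. Cnn1 and Myh11 are genes of mature smooth muscle. The list's median log2 fold change was 0.83. The tested genes below 0 were Tpm2 (-0.53, SE 0.26), Smtn (-0.42, SE 0.21) and Cald1 (-0.23, SE 0.27), which did not pass. Cald1 averaged 451 CPM in responders and 530.2 CPM in non-responders. Cnn1 and Synpo2 averaged only 0.468 and 2.05 CPM in the non-responders, a low base. The list summed to 762 and 791 CPM in the responders, inside the non-responder range of 608 to 959.7 CPM. Myh11 averaged 24.5 CPM in responders and 2.36 CPM in non-responders, a wider gap than that of Acta2 in the same tumors, though the difference between the genes was not tested.

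Of 12 further fibroblast identity genes, 4 were higher, among them Dpt (1.19, SE 0.28) and Clec3b (3.56, SE 0.92), genes of resting adventitial fibroblasts, and 1 was lower, Serpinf1 (-0.72, SE 0.12). Their edgeR adjusted p-values were 0.00501, 0.0109 and 4.1e-04. Clec3b averaged 3.85 CPM in the non-responders, a low base. Also below 0, without passing, were Cd34 (-0.62, SE 0.26), Twist1 (-0.62, SE 0.30) and Twist2 (-0.47, SE 0.21). The list median was 0.36. The list summed to 1684 and 1330 CPM in the responders, beside 1162 to 1660 CPM in the non-responders and 1158 to 1800 CPM in the IgG controls. Of 20 fibrillar matrix genes, 3 were higher, Loxl1, Fmod and Bgn, the latter pair being proteoglycans related to Lum and Dcn, a share near that of all genes, and 17 did not pass (list median 0.60). Of 10 pericyte genes, 2 were higher, Notch3 (1.89, SE 0.57) and Abcc9 (1.53, SE 0.50), again near the share of all genes. Of the signals upstream of the receptors, 0 of 4 PDGF ligand genes passed (list median -0.34). Of 15 genes of the TGF-beta pathway, which drives the myofibroblast state, only Tgfb3 passed, at -0.49 (SE 0.16, edgeR adjusted p = 0.0354).

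Of 11 inflammatory fibroblast genes, 3 were higher in responders, C3 (3.32, SE 0.65), Cxcl12 (3.43, SE 0.86) and Has1 (2.46, SE 0.79). Of 11 lymphoid stroma genes, 9 were higher, led by the chemokine genes Ccl19 (7.27, SE 0.66), Cxcl13 (5.53, SE 0.60) and Ccl21a (6.70, SE 0.92). Their edgeR adjusted p-values were 8.4e-07, 5.1e-06 and 6.4e-05. In the non-responders they averaged only 0.156, 0.656 and 1.04 CPM, a low base for a fold change. Ccl19 and Madcam1, both among the 9, passed the low-count filter in the fit of 3 groups. They did not pass it in the fit of all aPD-1 tumors against IgG controls. A gene high only in the responders can enter the test through them, so such a call is weak support. Without responder 15 these lists rest on 1 responder. A call lost there cannot be told from lost power, so such calls are not counted for them. The T cell genes belong to the cell type by which the responders were chosen. With both responders kept, 4 of 10 blood endothelial, 3 of 5 lymphatic endothelial, 1 of 8 macrophage and 1 of 7 tested keratinocyte genes were higher. So were 2 of 5 Schwann cell and 0 of 8 skeletal muscle genes, and 2 of 10 proliferation genes were lower. Like Ccl19, the called genes Prox1 and Reln (lymphatic endothelial) and Sox10 and S100b (Schwann cell) passed the low-count filter in the fit of 3 groups but not in the other. The blood endothelial sum was 476 CPM in responder 15 and 253 CPM in responder 16, beside 244 CPM in IgG control 2.

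**Figure D5:**
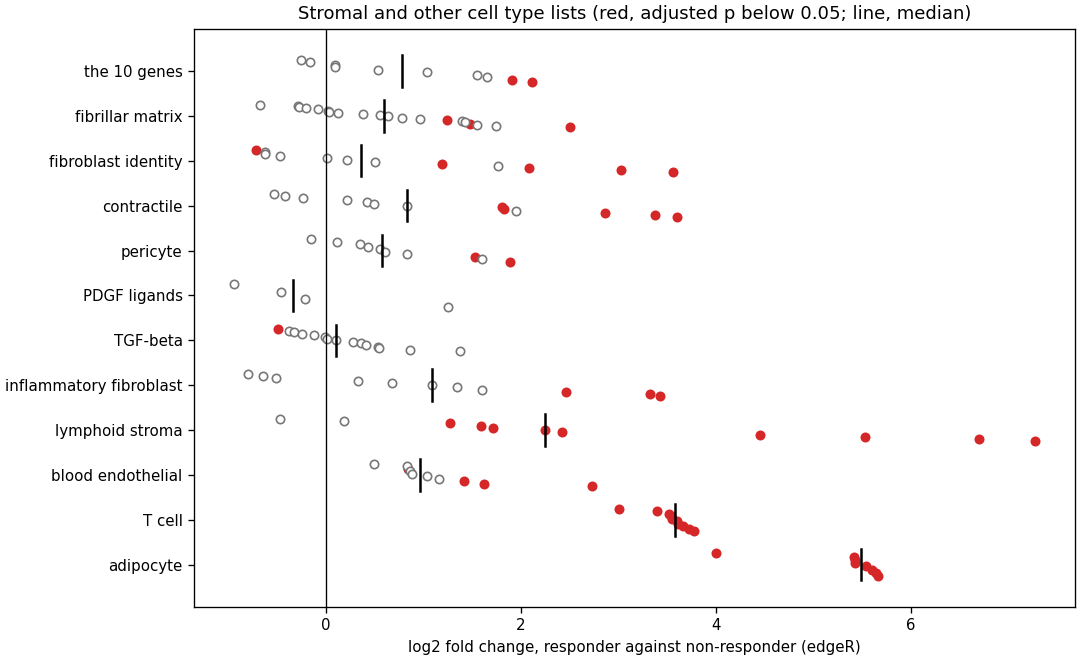
Responder against non-responder log2 fold change (horizontal axis) for the 10 genes and the genes of 11 further lists (rows); red points have an edgeR adjusted p below 0.05, and black lines are list medians. The T cell, adipocyte and blood endothelial lists lie wholly to the right, with medians of 3.57, 5.49 and 0.96, and the 10 genes and the contractile list straddle 0.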

How the data were processed

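The authors aligned paired reads of 150 bases to GRCm38 with STAR 2.6 and estimated counts with RSEM 1.3.0 on Ensembl release 91 genes. They deposited expected counts per gene, 1 column per tumor, of which 7.83% were not whole numbers. Here these were rounded, and 92 spike-in entries, with at most 185 counts in a tumor, were left out. GENCODE mouse release 21 gave symbols and exon lengths for 53274 of 53465 identifiers. The listed genes, further lists and tests were chosen with earlier results of these data known.

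Groups were compared in R 4.3.3 with edgeR 4.0.16 (TMM scaling, its low-count filter, robust quasi-likelihood test) in 1 fit of 3 groups, and in a fit of 2 groups (15775 genes) for all aPD-1 tumors. The study's own tool, DESeq2 1.42.0, was an alternative. Both tools were tested on simulated data. Each recovered the fold changes there, edgeR kept its nominal rate of false calls, and DESeq2 made more false calls than its threshold allows. Calls of DESeq2 alone were therefore treated as less certain. The simulated counts used the spread that edgeR had estimated and a far smaller share of changed genes than the responder comparisons called. This setting can favour edgeR, so it does not rank the tools on the real counts. The test for false calls was first written to stop on either tool and was limited to edgeR once this had been seen. CPM used TMM-scaled totals, and log2 CPM a prior count of 2.

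Correlations used 100000 permutations. The plan named all 16 tumors for them. The 14 tumors without responders were used as the main set because the responders stood apart. Over 16 tumors the number of pairs that passed and rho for some pairs are given. The relations with summed lists were computed without the responders only. Mice are the replicates, and no 2 libraries were alike within sampling noise (chi-square over degrees of freedom was at least 15.2 in 120 pairs). Named genes were the 10 listed genes, up to 3 genes of smallest p past the test from each further list, and the 3 genes most like each listed gene. Cldn3, Cldn7, Cdx2, Vil1, Madcam1, Tpm2, Smtn, Cald1, Cd34, Twist1 and Twist2 were named outside this rule, after their values were seen. Alternatives were median-of-ratios size factors, DESeq2, other low-count filters, fits without the third group, and fits that each left out 1 tumor. Leaving out the tumors with over 5% mitochondrial counts was added after the data were seen.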

Additional observations from a re-analysis of the deposited data

Results flagged for a closer look

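Each listed gene was checked in the IgG control and non-responder groups for 1 tumor far from the rest by Dixon's test, 20 groups in all, of which chance marks about 1 in 20. There were 2 such values. Pdgfra in IgG control 1 was the lowest of its group at 200.3 CPM, with the nearest tumor at 317 CPM. Pdpn in non-responder 9 was the lowest of its group at 96.8 CPM, with the nearest tumor at 139 CPM. Both tumors had a high mitochondrial share of counts (7.60% and 6.00%), and its part in these values was not tested.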

How the results depend on the processing

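With 2 responders, 1 tumor can decide a call, and the exact tests cannot go far below the threshold. No paired analysis was possible because the groups share no replicate numbers. Leaving out each tumor in turn, the listed genes past the test numbered 0 to 3 against non-responders, 1 to 5 against IgG controls, and 0 in both other comparisons. Against non-responders the count was 0 without responder 15 and 3 without non-responder 11, non-responder 13 or, through the shared spread, IgG control 1. Against IgG controls it was 1 without responder 15 and 4 without IgG control 3, IgG control 4 or responder 16. Without a low-count filter 3 genes passed against IgG controls, and over all 16 tumors 12 pairs correlated. Fap passed against non-responders with median-of-ratios size factors (adjusted p = 0.0470) and DESeq2 (0.0359), the second a tool that made too many false calls on simulated data. Acta2 against IgG controls did not pass in DESeq2 (0.0511), without IgG control 3 (0.0553) or 4 (0.0527), or without responder 16 (0.0680). The cause was not tested.

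Directions turned only in comparisons that the gene in question had not passed. Leaving out 1 tumor, log2 fold changes against non-responders ran from -0.74 to 0.16 for Pdgfra, -0.08 to 0.18 for Pdgfrb and -0.50 to 0.41 for Pdpn. Responders against IgG controls ran from -0.06 to 0.17 for Pdgfrb, -0.36 to 0.06 for Dcn and -0.39 to 0.51 for Pdpn. Non-responders against IgG controls ran from -0.06 to 0.15 for Pdgfrb, -0.18 to 0.19 for Lum and -0.01 to 0.37 for Postn, and all aPD-1 tumors ran from -0.02 to 0.17 for Pdgfrb. Without the tumors of high mitochondrial share, Pdpn against non-responders was -0.06, Dcn in responders against IgG controls 0.00, and Lum in non-responders against IgG controls 0.16.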
